A study of Mus musculus with 6 samples.

Results

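Whether the other enzymes that write and erase marks on histones and DNA shifted with Dot1l was read from 45 genes of the mouse. They were chosen by name, as a list of histone methyltransferases, demethylases, deacetylases, DNA methyltransferases and TET dioxygenases that does not hold Dot1l itself, and 45 of the 45 were found among the 24421 gene symbols counted. Reads per gene were available for 6 RNA-seq libraries with 1 library per condition. Blood endothelial cells (BECs) of E15.5 embryo skin gave the first pair, sorted as F4/80-, CD45- and Lyve1- cells from Dot1l 2f/2f embryos without (Cont) or with (cKO) Tie2-Cre, which deletes the floxed gene in cells where the Tie2 promoter is active. Both skin groups thus carry the floxed allele. The paper's methods name only these negative markers for the BECs, while a figure legend also lists CD31 as a positive marker. In culture, an embryonic yolk sac BEC line (CRL-2581) and embryonic dermal lymphatic endothelial cells (LECs, C57-6064L) received a lentivirus. It carried dCas9-VP64, a transcriptional activator without nuclease activity, and guides to the Dot1l promoter (OE-BECs and OE-LECs), or was empty (Cont). EGFP+ cells were sorted. Each library was made from RNA of 2 to 3 embryos or flasks pooled. No condition had a replicate, so every difference given here is a difference between 2 libraries, and the 95% intervals cover counting error only.

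Chromatin enzymes are often described as writers and erasers. Writers of the KMT2 and SETD1 families methylate lysine 4 of histone H3 (H3K4) at promoters and enhancers, SETD2 and NSD1 methylate H3K36 along transcribed genes and other regions, Polycomb repressive complex PRC2 methylates H3K27, and SETDB1, EHMT1, EHMT2 and the SUV39H enzymes methylate H3K9 in silent chromatin. KDM proteins remove such methyl groups, histone deacetylases (HDACs) remove acetyl groups, DNMTs methylate cytosine in CpG, and TET enzymes oxidise methylated cytosine. DOT1L, which methylates H3K79 in transcribed genes and is unrelated in fold to the SET domain writers, is the enzyme that the study removed or raised. In endothelium, HDAC7 is known for its role in vessel integrity and EZH2 for silencing genes in vessel development.

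Promoters differed between members in the density of CpG, the site that DNMTs and TETs act on. The sequence just upstream of the start is shown for Dot1l, the gene that the guides were directed to, for Ezh2 and Ezh1, which differed in opposite directions in OE-BECs, and for Tet2 and Hdac9, the largest decreases there. Each line holds 150 bases, 5′ to 3′ up to the base before the RefSeq start, on GRCm38.p6 (mm10), with every CpG in capitals.
Dot1l, chr10:80755053-80755202, plus strand: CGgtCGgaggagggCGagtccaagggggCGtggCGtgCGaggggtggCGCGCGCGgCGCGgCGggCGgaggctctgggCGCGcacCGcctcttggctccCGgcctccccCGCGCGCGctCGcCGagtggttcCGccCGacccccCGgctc
Ezh2, chr6:47595031-47595180, minus strand: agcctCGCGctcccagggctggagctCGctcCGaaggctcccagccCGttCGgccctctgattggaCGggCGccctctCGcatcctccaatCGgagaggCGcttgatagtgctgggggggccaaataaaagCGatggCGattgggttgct
Ezh1, chr11:101226464-101226613, minus strand: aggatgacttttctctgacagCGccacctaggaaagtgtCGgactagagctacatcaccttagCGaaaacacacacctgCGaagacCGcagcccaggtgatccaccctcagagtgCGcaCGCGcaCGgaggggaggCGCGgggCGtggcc
Tet2, chr3:133544391-133544540, minus strand: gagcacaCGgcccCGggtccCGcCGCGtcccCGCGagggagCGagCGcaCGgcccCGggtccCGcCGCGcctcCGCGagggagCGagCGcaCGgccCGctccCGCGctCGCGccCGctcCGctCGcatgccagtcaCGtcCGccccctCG
Hdac9, chr12:34917096-34917245, minus strand: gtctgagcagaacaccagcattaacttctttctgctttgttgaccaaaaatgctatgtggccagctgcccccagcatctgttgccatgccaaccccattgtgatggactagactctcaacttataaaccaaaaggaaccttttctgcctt
The printed stretch held 27 CpG at Dot1l, 30 at Tet2, 13 at Ezh2 and 12 at Ezh1, and none (0) at Hdac9. RefSeq promoter windows matched 33 of the 45 genes, in 49 windows, and the 250 bases upstream held a median of 21 CpG against 6 over all 32851 windows. In the 12 windows of the 9 matched genes past the 1.5-fold rule in OE-BECs (the rule is given with the first comparison) the median was 15, and in the other 37 it was 23. The letters CCAAT, on either strand, were found in 15 of the 49 windows (30.6%) and in 33.8% of all windows. This is a count of letters, with no measure of binding.

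The libraries held from 8863349 reads (Cont skin BECs) to 31032461 reads (OE-LECs). Dot1l (chromosome 10, 80755206 to 80795461, mm10) had 762 reads in Cont skin BECs and 944 in the library labelled cKO, or 86.0 and 85.2 counts per 1000000 reads of the library (CPM). The log2 ratio of cKO over Cont was -0.07 (95% interval -0.21 to 0.07). The label cKO was thus not matched by a lower Dot1l count, although a count of the whole gene does not resolve the floxed part. The paper reports that RT-qPCR of Dot1l bore out the knockout, which these counts cannot check. In OE-BECs Dot1l stood at 302 CPM against 112 in their control (log2 ratio 1.48, interval 1.40 to 1.55), and in OE-LECs at 217 against 95.3 (1.20, 1.13 to 1.27). Prox1, the defining transcription factor of LECs, had 0 reads in both libraries labelled LEC and in both cultured BEC libraries, and 1304 and 883 reads in the skin BEC libraries. The 8 listed lymphatic markers together summed to 2300 and 2230 CPM in the LEC pair, 1110 and 1420 CPM in the cultured BEC pair and 2920 and 3310 CPM in the skin pair. Most of the LEC sum was Lyve1, a hyaluronan receptor, with 52184 and 60898 reads. The cultured BEC pair had 10680 and 14786 reads of Lyve1. Flt4 had 2785 and 4038 reads in the LEC pair and 2552 and 1369 in the cultured BEC pair. Nr2f2 had 5172 and 4322 reads in the LEC pair and 6446 and 3579 in the cultured BEC pair. Reln, Mmrn1 and Pdpn had at most 1 read each in either LEC library and at most 5 in either cultured BEC library. Ccl21a had 0 reads in all 6 libraries. Lyve1 also had 9105 and 19959 reads in the skin libraries, whose cells were sorted as Lyve1-. The skin libraries also held macrophage markers in spite of the sort, with 10 of 10 listed markers above 0 in both. They summed to 3790 CPM in Cont and 6070 CPM in cKO, against 34.4 to 94.7 CPM in the 4 cultured libraries. Fibroblast markers summed to 2540 CPM in skin Cont and 1870 CPM in cKO BECs, against at most 20.4 CPM in culture. Pericyte markers summed to 724 and 563 CPM, against at most 3.71 CPM in culture. Rn45s, a ribosomal RNA precursor, took 5.91% of reads in cultured Cont BECs and 10.9% in OE-BECs, and under 1% elsewhere.

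All 45 genes were counted in every library. They took 0.718% and 0.704% of reads in skin Cont and cKO BECs, 0.592% and 0.543% in cultured Cont and OE-BECs, and 0.410% and 0.389% in Cont and OE-LECs. Per kilobase of exon, their median level was 12.9 and 13.6 CPM per kb in the skin libraries, 10.3 and 9.05 in the cultured BEC pair, and 8.37 and 8.88 in the LEC pair, control first. All genes with at least 100 reads had medians of 8.94 to 10.3 CPM per kb. As many as 17 of the 45 genes varied more than 3-fold in CPM between their highest and lowest library. There were 3 genes, Dnmt3b, Tet1 and Hdac9, with under 100 reads in some library. A total of 10 members overlap a gene on the other strand in the annotation (Kmt2e, Setd7, Setdb1, Ash1l, Eed, Suv39h2, Kdm2b, Kdm5a, Hdac7 and Dnmt3a), and whether the read counter used strand is not stated in the sources used here, so reads of the shared stretch cannot be told apart. For Setd7, Eed and Dnmt3a the other gene held only 56, 33 and 88 reads over the 6 libraries, against 26343, 6293 and 8696 of their own, while Setdb1 and Suv39h2 had fewer reads (8262 and 1987) than the gene they overlap (14558 and 4013).

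**Figure D1:**
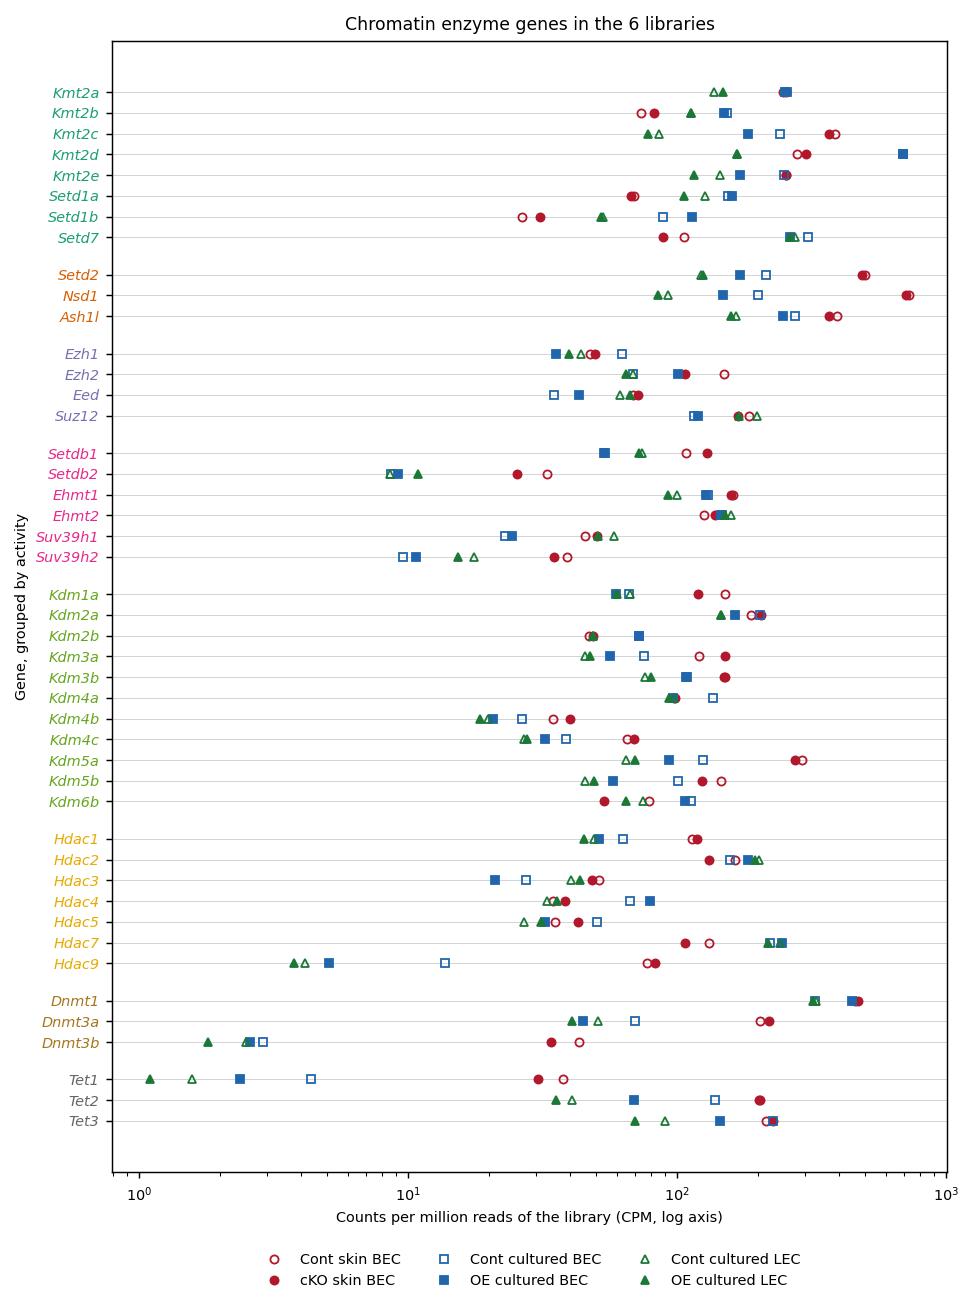
Level of each of the 45 genes in the 6 libraries, as CPM on a log axis, with 1 point per library and genes grouped by activity (from top to bottom H3K4, H3K36, H3K27 and H3K9 methyltransferases, demethylases, deacetylases, DNMTs and TETs). Open symbols are controls and filled symbols cKO or OE. The red skin circles lie far to the right of the cultured symbols for Dnmt3b, Tet1 and Hdac9, and the open and filled symbols of a pair mostly lie close together.

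Among the H3K4 writers, Kmt2d, the catalytic subunit of an enhancer complex, stood at 279 and 302 CPM in the skin pair (Cont, then cKO), 694 and 693 in the cultured BEC pair (Cont, then OE) and 167 and 167 in the LEC pair (Cont, then OE). Its relative Kmt2c had 388, 368, 241, 184, 86.0 and 78.3 CPM in the same order, which is kept below. Kmt2d was thus highest in the cultured BEC libraries and Kmt2c in the skin libraries. Setd1a and Setd1b, catalytic subunits of the complexes that place most H3K4 trimethylation, were lowest in skin. Setd1a had 69.2, 67.7, 155, 160, 127 and 106 CPM. Setd1b had 26.6, 30.9, 89.1, 114, 53.1 and 52.4 CPM. Setd7, a monomethyltransferase with many non-histone substrates, was also lower in skin, with 106 and 89.1 CPM, than in the cultured libraries, with 307, 264, 274 and 262 CPM. Kmt2e, a family member thought to lack methyltransferase activity, had 254, 255, 251, 171, 145 and 116 CPM. The remaining pair, Kmt2a and Kmt2b, ranged from 137 to 257 CPM and from 73.6 to 153 CPM. For the H3K36 writers the order was the reverse of that of Setd1a, Setd1b and Setd7, with the highest levels in skin. Nsd1 had 729 and 709 CPM in skin and 84.7 to 200 CPM in culture, Setd2 had 498 and 489 CPM in skin and 123 to 215 CPM in culture, and Ash1l went from 395 CPM in Cont skin BECs to 159 CPM in OE-LECs.

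PRC2 genes stayed within a narrower range. Ezh2, the main catalytic subunit in dividing cells, had 149, 107, 68.8, 101, 68.7 and 64.6 CPM in that order of libraries. Ezh1, its paralogue in slowly dividing cells, had 47.4, 49.4, 62.2, 35.5, 43.9 and 39.7 CPM. Ezh2 was thus highest in skin, and Ezh1 in cultured Cont BECs. Eed, the subunit that reads H3K27 trimethylation, had 68.4, 71.6, 34.8, 43.3, 61.5 and 66.7 CPM. Suz12, the core scaffold, had 186, 169, 116, 120, 199 and 170 CPM. Among the H3K9 writers, Ehmt2 had the smallest spread of all 45 genes, 1.26-fold from its lowest (126 CPM) to its highest library (159 CPM). Setdb1, which acts with KRAB zinc finger proteins, had 108, 129, 53.4, 53.8, 74.2 and 72.4 CPM, and its relative Setdb2 had 32.8, 25.5, 8.65, 9.19, 8.54 and 10.9 CPM. Suv39h1 and Suv39h2, writers of pericentric H3K9 trimethylation, were lowest in cultured BECs. Suv39h1 had 45.5, 50.6, 23.0, 24.3, 58.5 and 50.7 CPM, and Suv39h2 had 39.0, 34.9, 9.56, 10.7, 17.6 and 15.3 CPM. Ehmt1 went from 162 CPM in Cont skin BECs to 92.6 CPM in OE-LECs.

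The 11 demethylases had no member under 288 reads. Kdm6b, which removes H3K27 trimethylation and is induced in many stimulated cells, had 78.5, 53.6, 113, 107, 74.9 and 64.8 CPM. Kdm5b, an H3K4 demethylase, had 146, 124, 101, 57.8, 45.4 and 49.1 CPM, and Kdm3a, an H3K9 demethylase raised by hypoxia, had 121, 151, 75.7, 56.3, 45.5 and 47.4 CPM. Kdm4b, also an H3K9 demethylase, had 34.6, 40.1, 26.6, 20.7, 19.9 and 18.5 CPM. These last 3 were highest in skin. Kdm5a, close in sequence to Kdm5b, went from 292 CPM in Cont skin BECs to 64.8 CPM in Cont LECs, and Kdm2b, which recruits a variant Polycomb complex to CpG islands, only from 72.4 to 47.0 CPM. The other members of the group (Kdm1a, Kdm2a, Kdm3b, Kdm4a and Kdm4c) lay between 27.1 and 206 CPM.

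Class I deacetylases Hdac1 and Hdac2, partners in the same corepressor complexes, differed in their highest libraries. Hdac1 had 114, 119, 63.2, 51.2, 49.0 and 45.2 CPM, highest in skin, and Hdac2 had 165, 131, 157, 183, 202 and 195 CPM, highest in LECs. Hdac3 lay between 21.1 and 51.2 CPM. The class IIa member Hdac9 was the deacetylase that varied most, with 77.6 and 82.8 CPM in skin, 13.7 in cultured Cont BECs, 5.10 in OE-BECs, and 4.14 and 3.77 in Cont and OE-LECs, a 22.0-fold range. Its relative Hdac7 had 131, 107, 221, 245, 241 and 218 CPM. Hdac4 had 34.6, 38.3, 66.8, 79.4, 33.0 and 35.7 CPM, and Hdac5 had 35.2, 42.8, 50.3, 32.4, 26.9 and 31.2 CPM. Thus Hdac9 and Hdac7, of the same class, had opposite orders between skin and culture. Dnmt1, which copies methylation at replication, had the highest level per kilobase of the DNMTs in every library, and as CPM had 460, 470, 325, 448, 328 and 319 CPM. Dnmt3a, a de novo methyltransferase, had 204, 220, 69.9, 44.9, 50.8 and 40.7 CPM. Dnmt3b, also a de novo enzyme, had 43.3 and 34.1 CPM in skin and 2.88, 2.58, 2.49 and 1.80 CPM in culture, where it rested on 36 to 65 reads. Tet1 had 37.7 and 30.5 CPM in skin and 4.35, 2.37, 1.57 and 1.10 CPM in culture, on 33 to 77 reads, a 34.4-fold range that was the widest of the 45 genes. Tet2 had 204, 202, 138, 69.0, 40.7 and 35.4 CPM, and Tet3 had 215, 227, 228, 144, 90.4 and 70.0 CPM. Each TET gene was lowest in OE-LECs.

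The comparison of cKO with Cont skin BECs asks whether these enzymes differ where Dot1l is to be lost. Counts were scaled by the median of ratios of the 2 libraries. A gene was called by the study's rule when its normalized counts differed more than 3-fold, and by a lower rule when they differed at least 1.5-fold with an interval that left out a ratio of 1, among genes with 100 or more reads in both libraries together. Neither rule is a test of the condition. By the 3-fold rule, 0 of the 45 genes were higher and 0 were lower, where 5.17% and 2.41% of all genes were. By the 1.5-fold rule, 0 of 45 were higher, where 9.82% of all genes were, and 1 of 45 was lower (2.22%), where 7.87% of all genes were. The median log2 ratio of the 45 was -0.05 against -0.03 for all genes, and 43 lay within 0.5 of 0. With total counts as the scaling this median was 0.01, so it has no stable sign.

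Kdm6b (chromosome 11, 69398508 to 69413675) was the gene past the rule. It had 696 reads in Cont and 594 in cKO, a log2 ratio of -0.61 (-0.77 to -0.45), and was 1.52-fold lower. With total counts, with or without Rn45s, its log2 ratio was -0.55 and it did not pass. Ezh2 (chromosome 6, 47530139 to 47595341) followed, with 1323 and 1182 reads (log2 ratio -0.54, -0.65 to -0.43). Kdm6b thus had the lowest ratio among the erasers and Ezh2 among the writers. The former removes the mark that the latter sets, but Ezh1 and Eed, also of PRC2, were at 0.01 and Suz12 at -0.20. Setdb2 had 291 and 283 reads (-0.42, -0.66 to -0.18), Dnmt3b 384 and 378 (-0.40, -0.61 to -0.19) and Hdac2 1465 and 1448 (-0.39, -0.50 to -0.29). On the other side, the ratios were smaller. Kdm3a had 1069 and 1676 reads (0.27, 0.16 to 0.38), Hdac5 312 and 474 (0.23, 0.02 to 0.44) and Setdb1 954 and 1429 (0.21, 0.09 to 0.32). For Setd1b, with 236 and 343 reads (0.16, -0.08 to 0.41), and Kdm4b, with 307 and 444 (0.15, -0.06 to 0.37), the interval held 0. The H3K36 writers had 3 of 3 ratios below 0 under each scaling used, from -0.16 to -0.08 with this one and from -0.11 to -0.02 with total counts, and the H3K4 writers 5 of 8 below 0 with this scaling and 3 of 8 with total counts. Neither group had a gene past 1.5-fold.

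Marker genes of several cell types also differed between these libraries. Macrophage markers were higher in cKO for 10 of 10 genes (6 past 1.5-fold). Endothelial markers were lower for 10 of 12 (8 past 1.5-fold), with a summed level of 6770 CPM in Cont and 4390 CPM in cKO. Fibroblast markers were lower in cKO for 6 of 7 tested genes and pericyte markers for 6 of 6, with 0 past 1.5-fold in either list. Keratinocyte markers summed to 139 CPM in Cont and 255 CPM in cKO, with 5 of 7 tested genes higher in cKO (3 past 1.5-fold) and 2 lower. Lymphatic markers were lower in cKO for 5 of 7 tested genes, with Prox1 (-0.94), Reln (-0.87) and Nr2f2 (-1.04) past 1.5-fold. The other 2, Lyve1 (0.75) and Pdpn (1.07), were higher past 1.5-fold, and the summed level was 2920 CPM in Cont and 3310 CPM in cKO. In bulk RNA, fewer cells of a type and less RNA per cell cannot be told apart, and the part of these cells in the ratios of Kdm6b and Ezh2 was not tested.

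**Figure D2:**
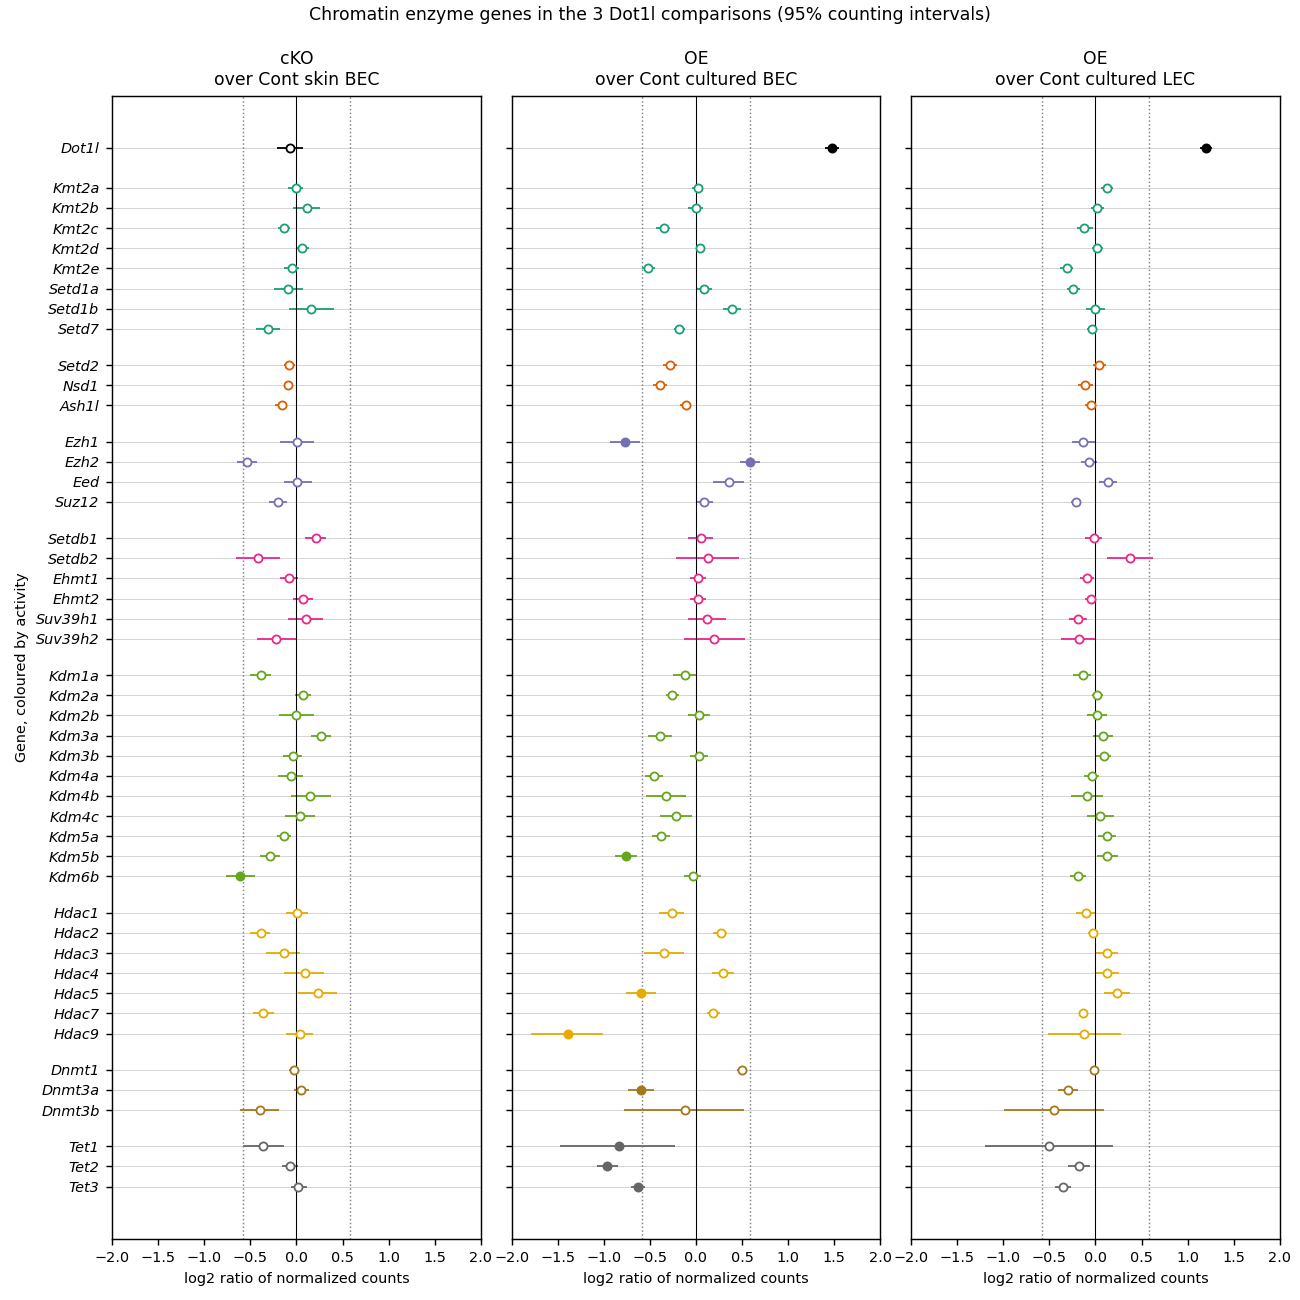
Log2 ratio of each gene in cKO over Cont skin BECs (left), OE over Cont cultured BECs (middle) and OE over Cont cultured LECs (right), with bars for the 95% counting interval and Dot1l in black on top. Filled points are past the 1.5-fold rule and dotted lines mark 1.5-fold. Dot1l aside, 1 point is filled in the left panel, 9 in the middle and 0 in the right. Dot1l is filled in the middle and right panels.

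In OE-BECs, where Dot1l was 2.78-fold higher than in their control, 9 enzymes passed the 1.5-fold rule, against 1 in the skin pair. Of the 44 genes that reached 100 reads, 8 were lower (18.2%) and 1 was higher (2.27%), where 11.5% and 7.59% of all genes were. The 8 were Hdac9, Tet2, Tet1, Ezh1, Kdm5b, Tet3, Hdac5 and Dnmt3a, and the gene on the other side was Ezh2. With total counts the split was 8 lower and 0 higher, as Ezh2 fell short (0.55), and with total counts without Rn45s or with factors of all 6 libraries it was 6 lower and 1 higher, as Hdac5 (-0.56 and -0.57) and Dnmt3a (-0.56 and -0.58) fell short. No gene (0 of 45) passed the 3-fold rule on either side, where 8.02% of all genes were higher and 5.27% lower. The median log2 ratio of the 44 was -0.12 against -0.03 for all genes, and they spread from -1.39 to 0.59.

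The erasers of DNA methylation were lower as a group, with 3 of 3 TET genes past 1.5-fold under each scaling used. Tet2 (chromosome 3, 133463679 to 133545139) had 2435 reads in Cont and 962 in OE-BECs, and was 1.94-fold lower (log2 ratio -0.96, -1.07 to -0.85). Tet3 had 4036 and 2005 reads (-0.63, -0.70 to -0.55). Tet1, with 77 and 33 reads, had the wide interval of a low count (-0.84, -1.47 to -0.23). Among the writers of DNA methylation, Dnmt3a was lower with 1236 and 625 reads (-0.60, -0.74 to -0.46), while Dnmt1 had more reads in OE-BECs in spite of the smaller library, 5754 and 6239 (0.50, 0.45 to 0.55), which is under 1.5-fold. Dnmt3b had only 51 and 36 reads (-0.12, -0.78 to 0.52). Dnmt3a and Dnmt1 thus lay on opposite sides of 0.

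Within PRC2, Ezh2 and Ezh1 parted. Ezh2 had 1216 and 1405 reads (0.59, 0.48 to 0.70) and Ezh1 had 1100 and 495 (-0.77, -0.93 to -0.61). The other PRC2 genes among the members were closer to Ezh2. Eed was at 0.36 (0.19 to 0.52), with 615 and 604 reads, and Suz12 at 0.09, with 2050 and 1677 reads. The lowest ratio of all was that of Hdac9 (chromosome 12, 34047580 to 34917095), with 243 and 71 reads, 2.62-fold lower (-1.39, -1.79 to -1.01). Hdac5, of the same class IIa, was lower too, with 889 and 451 reads (-0.60, -0.76 to -0.43). The other class IIa members were not, since Hdac4 had 1182 and 1107 reads (0.29, 0.17 to 0.41) and Hdac7 had 3909 and 3417 (0.19, 0.12 to 0.26). Kdm5b (chromosome 1, 134560171 to 134635285) had 1781 and 806 reads (-0.76, -0.88 to -0.64) and was the one demethylase past the rule. In all, 9 of 11 demethylases had ratios below 0, from -0.76 to 0.03 for the whole group, and 11 of 11 did with total counts. The H3K36 writers were below 0 in 3 of 3 cases (-0.39 to -0.11). The H3K9 writers were above 0 in 6 of 6 (0.02 to 0.20), but in 4 of 6 with total counts, and 0 passed the rule. Of the H3K4 writers, Setd1b had 1576 and 1586 reads (0.39, 0.29 to 0.49) and Kmt2e 4433 and 2378 (-0.52, -0.59 to -0.44), with 4 of 8 above 0.

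Other lists moved between the same libraries. Cell cycle genes were higher in OE-BECs for 18 of 18 (5 past 1.5-fold, median log2 ratio 0.54), led by Rrm2 (0.91, 0.83 to 0.99), a subunit of ribonucleotide reductase, and Ccna2 (0.71, 0.62 to 0.80), cyclin A2. Ezh2 and Dnmt1 are known as genes expressed in dividing cells. In the skin pair, 14 of 18 cell cycle genes were above 0 in cKO and 4 below (1 past 1.5-fold, median 0.11). Ezh2 was at -0.54 and Dnmt1 at -0.03 in that pair. Endothelial markers summed to 8650 CPM in Cont and 5710 CPM in OE-BECs. The part of the cell cycle and of the larger Rn45s share in the enzyme ratios was not tested. To look at exon length, all genes were split by it into 4 groups of equal size. The median log2 ratio was -0.07 over all genes of the longest group (at least 7.06 kb) and 0.01 over the shortest, and the 26 enzymes in the longest group had a median of -0.32.

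**Figure D3:**
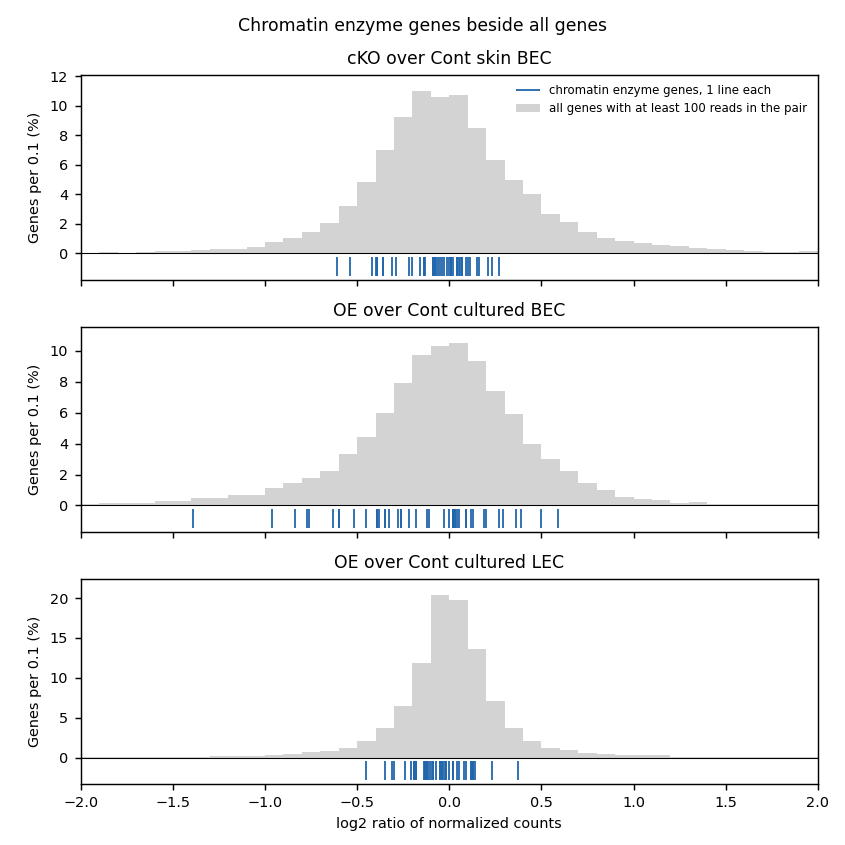
Log2 ratios of the enzymes that reached 100 reads (blue lines) under the distribution of all such genes (grey bars, percent of genes per 0.1 of log2 ratio, drawn from -2 to 2), for cKO, OE-BECs and OE-LECs from top to bottom. The blue lines spread from -0.61 to 0.27 on top, from -1.39 to 0.59 in the middle and from -0.45 to 0.37 at the bottom.

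In OE-LECs, where Dot1l was 2.30-fold higher than in their control, 0 of 44 enzymes passed 1.5-fold on either side, where 3.96% of all genes were higher and 3.27% lower, so few genes of any kind passed in this pair. By the 3-fold rule the counts were 0 and 0 of 45, where 2.77% and 2.09% of all genes passed. All 44 lay within 0.5 of 0, and their median was -0.05 against 0.01 for all genes. Tet1 had 41 and 34 reads in the pair, under the minimum. The most negative ratio, -0.45 (-0.99 to 0.09) for Dnmt3b, rested on 65 and 56 reads, and its interval held 0. Tet3 had 2361 and 2172 reads (-0.35, -0.44 to -0.27), Kmt2e 3798 and 3593 (-0.31, -0.38 to -0.24), Dnmt3a 1326 and 1262 (-0.30, -0.41 to -0.19) and Setd1a 3323 and 3298 (-0.24, -0.31 to -0.17). Tet3, Dnmt3a and Kmt2e also had ratios under -0.5 in OE-BECs. On the other side were Setdb2 with 223 and 338 reads (0.37, 0.12 to 0.62), Hdac5 with 703 and 968 (0.23, 0.09 to 0.37), Eed with 1605 and 2069 (0.14, 0.04 to 0.23), Hdac4 with 863 and 1109 (0.13, 0.00 to 0.26) and Kdm5b with 1187 and 1523 (0.13, 0.02 to 0.24). The DNMTs had 3 of 3 ratios below 0 and the H3K9 writers 5 of 6. The cell cycle list had 13 of 18 ratios below 0 and 0 past 1.5-fold.

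The OE comparisons share no library, so their ratios can be set side by side. No enzyme could be past 1.5-fold in both, since 0 of 44 passed in OE-LECs. Among the 43 enzymes that reached 100 reads in both pairs, the intervals did not overlap for 24. In 17 of these (39.5% of the 43) the ratio was lower in OE-BECs, where 24.3% of all genes were. In 7 (16.3%) it was higher, where 18.8% of all genes were. Intervals narrow with more reads, and the enzymes and all genes were not matched for read count. Hdac9 differed most, at -1.39 in OE-BECs and -0.12 (-0.51 to 0.28) in OE-LECs. Tet2 had -0.96 and -0.18 (-0.30 to -0.06), and Ezh1 had -0.77 and -0.13 (-0.25 to -0.01). For Kdm5b and Hdac5 the signs were opposite, at -0.76 and 0.13 and at -0.60 and 0.23. Ezh2 went the other way round, with 0.59 and -0.07 (-0.16 to 0.02), and so did Dnmt1, with 0.50 and -0.02 (-0.06 to 0.02). In CPM, Hdac9 was at 5.10 in OE-BECs against 13.7 in their control, and at 3.77 in OE-LECs against 4.14. In the skin pair, Ezh2 and Hdac2 lay below 0 (-0.54 and -0.39) and in OE-BECs above 0 (0.59 and 0.27). Others lay below 0 in both, such as Tet1 (-0.36 in the skin pair and -0.84 in OE-BECs) and Kdm5b (-0.29 and -0.76). How often the sides differed was not set against all genes, and Dot1l itself was at -0.07 in the skin pair. Of the enzymes, 0 were called in opposite directions in cKO and OE-BECs, but only Kdm6b was called in cKO at all.

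Ratios between related genes within a library do not depend on the scaling of libraries. Per kilobase of exon, Ezh2 was 3.51 times Ezh1 in Cont skin BECs (3.14 to 3.93) and 2.40 times in cKO BECs (2.17 to 2.66). In the cultured BEC pair it was 1.23 times (1.13 to 1.34) in the control and 3.16 times (2.85 to 3.51) in OE-BECs. In the LEC pair the ratios were 1.74 (1.62 to 1.88) and 1.81 (1.69 to 1.95). The ratio was thus lower in cKO BECs and higher in OE-BECs than in their controls, and the intervals of the LEC pair overlapped. Dnmt1 over Dnmt3a was 5.09 and 4.82 in the skin pair, 10.5 (9.87 to 11.2) and 22.5 (20.7 to 24.5) in the cultured BEC pair, and 14.6 (13.7 to 15.4) and 17.7 (16.7 to 18.8) in the LEC pair, so it was higher in the OE library of both lines. Dnmt3a over Dnmt3b was 1.44 and 1.98 in skin and 5.33 to 7.44 in culture, with overlapping intervals in both cultured pairs. Tet2 over Tet3 was near 1 in skin (0.940 and 0.880) and between 0.445 and 0.597 in culture. Hdac2 over Hdac1 was 1.12 (1.03 to 1.21) in Cont skin BECs and 0.842 (0.781 to 0.908) in cKO BECs, and 1.91 (1.78 to 2.05) in cultured Cont BECs and 2.76 (2.54 to 3.0) in OE-BECs. In the LEC pair it was 3.17 and 3.33, with overlapping intervals. Hdac7 over Hdac9 spanned the widest range, from 2.79 in cKO BECs to 34.9 (30.7 to 39.9) in cultured Cont BECs, 104 (82.6 to 134) in OE-BECs, and 127 (105 to 155) in the control of the LEC pair. Kdm5a over Kdm5b was 1.45 (1.36 to 1.54) in cultured Cont BECs and 1.89 (1.73 to 2.06) in OE-BECs, and 1.67 and 1.66 in the LEC pair. Kmt2d over Kmt2c was under 1 in skin (0.731 and 0.836) and from 1.98 to 3.84 in culture.

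**Figure D4:**
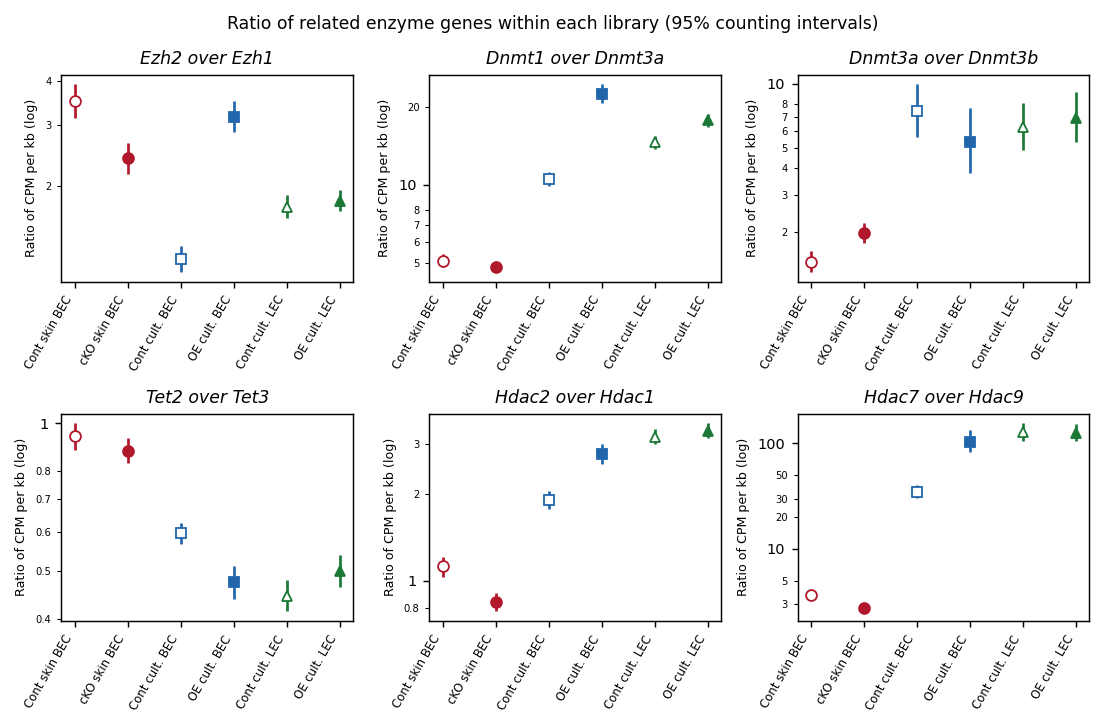
Ratio of CPM per kb between related genes within each library, on log axes, with bars for the 95% counting interval, for the skin (circles), cultured BEC (squares) and cultured LEC (triangles) pairs. Open symbols are controls and filled symbols cKO or OE. Ezh2 over Ezh1 moves from 1.23 to 3.16 in the BEC line and from 1.74 to 1.81 in the LEC line.

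Genes of the same pathways outside the 45 were read from further lists. In the skin pair, 0 of 12 acetyltransferases, 0 of 12 further lysine methyltransferases, 0 of 8 arginine methyltransferases and 0 of 20 subunits and cofactors passed 1.5-fold. Of 7 further deacetylases and sirtuins 1 passed, Hdac8, which was lower with 104 and 87 reads (-0.64, -1.06 to -0.21). Of 11 further demethylases 1 passed, Kdm5d, an H3K4 demethylase encoded on the Y chromosome, which was higher with 236 and 514 reads (0.75, 0.52 to 0.97). The sexes of the pooled embryos are not given in the labels, and their part in the Kdm5d ratio was not tested. In OE-BECs, Ncoa1 (-0.60, -0.74 to -0.47), a nuclear receptor coactivator, was lower as 1 of 12 acetyltransferases, and Hdac8 (-0.94, -1.37 to -0.53) as 1 of 10 deacetylases. Kdm7a was lower (-1.11, -1.29 to -0.94), and the low-count Kdm8 (0.66, 0.22 to 1.11) and Riox1 (0.81, 0.56 to 1.06) were higher, of 11 demethylases. Nsd2 (0.68, 0.63 to 0.73), which dimethylates H3K36, and Uhrf1 (0.73, 0.63 to 0.82), which brings DNMT1 to replicated DNA, were higher, as 1 of 12 lysine methyltransferases and 1 of 20 subunits and cofactors. Uhrf1 thus lay on the same side as Dnmt1. The arginine methyltransferases had 6 of 8 above 0 and 0 past 1.5-fold. In OE-LECs no gene of these 6 lists passed 1.5-fold (0 of 12, 10, 11, 13, 8 and 20 tested).

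Between the control libraries the enzymes differed widely, as did other genes. Cultured Cont BECs and Cont skin BECs differ in tissue, culture, cell type make-up and library, which cannot be told apart. Of the 45 genes, 12 were higher and 16 lower in culture past 1.5-fold, where 33.9% and 27.9% of all genes were, and with total counts 8 were higher and 20 lower. The median log2 ratio was -0.29 against 0.13 for all genes, and -0.53 with total counts, a shift of 0.24 that applies to every gene. H3K4 writers stood out on the higher side, with 7 of 8 above 0 and 5 past 1.5-fold, against 6 of 8 and 5 with total counts. Setd1b had 236 reads in skin and 1576 in culture (1.98, 1.78 to 2.19), Setd7 941 and 5434 (1.77, 1.67 to 1.87), Kmt2d 2470 and 12266 (1.56, 1.49 to 1.62) and Setd1a 613 and 2738 (1.40, 1.28 to 1.53). The DNMTs, the H3K36 writers and 5 of 6 H3K9 writers were below 0, under each scaling used. Dnmt3b had 384 and 51 reads and was 12.7-fold lower (-3.67, -4.12 to -3.25), Tet1 334 and 77 (-2.87, -3.25 to -2.51), Hdac9 688 and 243 (-2.26, -2.48 to -2.05) and Suv39h2 346 and 169 (-1.79, -2.06 to -1.52). These 4 genes were all low in culture. By length, the group of shortest genes had a median of 0.47 and that of the longest -0.22 in this pair, over all genes.

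The Cont LEC library compared with the cultured Cont BEC library, which is also part of the preceding comparison and the control of OE-BECs, had 4 of 45 enzymes higher and 23 lower past 1.5-fold (51.1% lower), where 23.5% and 17.9% of all genes were. These libraries differ in tissue, cell source, Rn45s share and library as well as in the cell type of their labels, which cannot be told apart. The median log2 ratio was -0.59 against 0.11 for all genes. The 8 H3K4 writers were all below 0 (5 past 1.5-fold), the 3 H3K36 writers and the 3 TET genes were all lower past 1.5-fold, and these counts held under each scaling used. The demethylases were below 0 in 11 of 11, and in 10 of 11 with total counts. Kmt2d had 12266 reads in BECs and 4357 in LECs (-2.16, -2.21 to -2.11), Tet2 2435 and 1062 (-1.86, -1.97 to -1.76), Hdac9 243 and 108 (-1.84, -2.18 to -1.50) and Kmt2c 4268 and 2245 (-1.59, -1.67 to -1.52). Higher in LECs were Suv39h1 with 406 and 1529 reads (1.25, 1.09 to 1.41), Suv39h2 with 169 and 460 (0.78, 0.52 to 1.04), Eed with 615 and 1605 (0.72, 0.58 to 0.85) and Suz12 with 2050 and 5206 (0.68, 0.60 to 0.75). The genes on this side were thus both SUV39H enzymes and the non-catalytic PRC2 subunits among the 45, Eed and Suz12. Ezh2 was at -0.11 (-0.21 to 0.00). Length went with these ratios, with a median of -0.22 over all genes of the longest group, 0.35 over those of the shortest, and -0.90 over the 26 enzymes in the longest group. The part of gene length in the enzyme ratios was not tested. Acetyltransferases were lower past 1.5-fold in 8 of 12, led by Crebbp (-2.71, -2.80 to -2.63), and the cell cycle list was higher past 1.5-fold in 12 of 18, led by Rrm2 (2.08, 2.02 to 2.15).

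**Figure D5:**
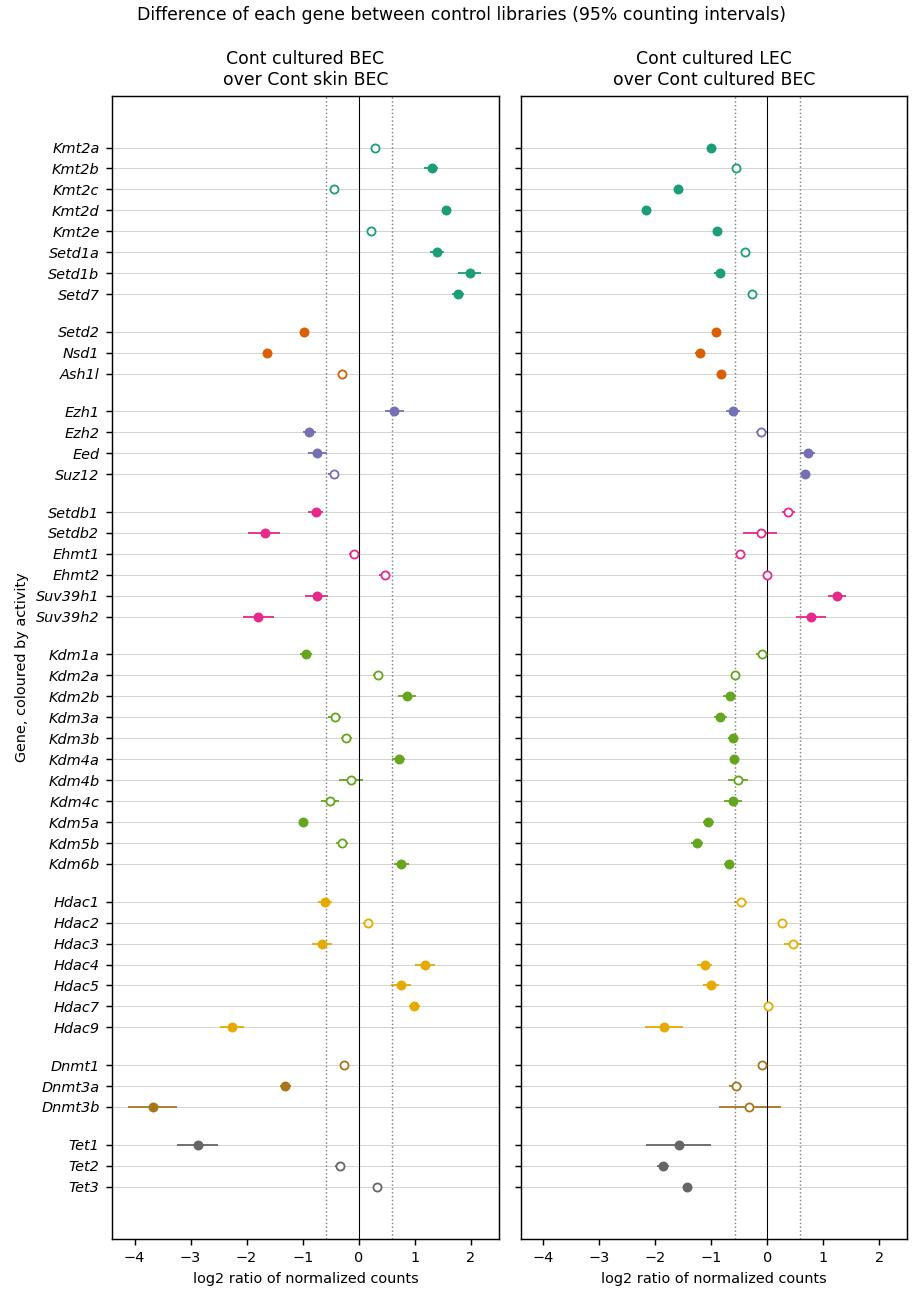
Log2 ratio of each enzyme in cultured Cont BECs over Cont skin BECs (left) and in Cont LECs over cultured Cont BECs (right), with bars for the 95% counting interval. Filled points are past the 1.5-fold rule, 28 on the left and 27 on the right, and dotted lines mark 1.5-fold.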

How the data were processed

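The 6 libraries were made by the authors with ScriptSeq v2. Per the labels and the study's methods, adapters were trimmed with skewer v0.2.2 (-L 75, -e), reads were aligned to mm10 with STAR v2.7.9a and raw counts made with VERSE v0.1.5 (-S) were deposited for 24421 symbols, 4473 of them without a read. The annotation, and whether counting used strand, are not given in the sources used here.

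The members and lists were chosen with earlier results of these data known, and processing followed that work. Counts were scaled by the median of ratios (DESeq2 1.42.0, R 4.3.3) on the 2 libraries compared. Exact (Clopper-Pearson) 95% intervals of log2 ratios came from the reads. They cover counting error only, since the reads carry no molecular identifiers and are not independent molecules. No p-value for a condition was computed, as no condition had a replicate. The 1.5-fold rule required 100 reads in the pair. The study's rule required more than 3-fold, with the higher normalized count 5 or more in the cKO pair and 3 or more in the OE pairs. CPM per kb used the union of GENCODE M21 exons, which overstates single isoforms. Genes with a position were 95.7% of symbols, all 45 members among them. Of 158 genes on further lists 158 were matched, 8 by an older symbol (Riox1 and Nsd2 among them). Promoters were RefSeq windows on GRCm38.p6.

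Named in full were, per Dot1l comparison, the 5 members with the largest positive and negative ratios with at least 100 reads and those past a rule, 4 per control comparison, and in further lists the 2 largest past 1.5-fold. For the control comparisons, only the further lists with most genes past the rule are named. The alternatives were TMM factors (edgeR 4.0.16), total counts with and without Rn45s, factors of all 6 libraries, minima of 20 or none, a fold of 2, a pseudocount of 1, and an edgeR exact test that assumes a coefficient of variation of 0.2 between replicates. The 1.5-fold and 3-fold rules were run on simulated counts with counting error only, which cannot show how they act with variation between replicates. Python 3.11.15 with numpy 2.4.6, scipy 1.17.1, pandas 2.3.3 and matplotlib 3.10.9 was used.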

Additional observations from a re-analysis of the deposited data

Results flagged for a closer look

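Kdm5b and Hdac5 were past 1.5-fold in OE-BECs and had an interval on the other side of 0 in OE-LECs. The log2 ratio of Kdm5b was -0.76 in OE-BECs and 0.13 in OE-LECs, and that of Hdac5 was -0.60 and 0.23. With 1 library per condition, the difference between the lines was not tested.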

How the results depend on the processing

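No paired analysis was possible because each group has 1 library, and no library could be left out. By the 3-fold rule the count of enzymes was 0 in the 3 Dot1l comparisons under every alternative run. By the 1.5-fold rule, the count in cKO was 1 and became 0 with total counts, with total counts without Rn45s, with a fold of 2 and with the assumed-variation test of edgeR. In OE-BECs it was 9, 7 to 9 under the other scalings and minima, 1 with a fold of 2 (Hdac9) and 0 with the assumed variation, where 2 genes had an unadjusted p under 0.05, while in OE-LECs it was 0 throughout, also unadjusted. In cultured Cont BECs over skin it was 28, 13 with a fold of 2 and 17 with the assumed variation, and in Cont LECs over cultured Cont BECs it was 27, 13 and 9. The lower counts at a fold of 2 follow from the stricter rule. The median of the enzymes in culture over skin was -0.29, and -0.53 and -0.45 with total counts with and without Rn45s. Under the 4 other scalings, 0 called enzymes changed sign. Of 532 ratios of the enzymes in the Dot1l comparisons, 7 lost their call (Kdm6b, -0.55, in cKO, and Ezh2, Hdac5 and Dnmt3a in OE-BECs) and 0 gained one. Of 360 in the control comparisons, 16 lost it, 9 of these with total counts, and 10 gained one. Scaling moved ratios by at most 0.06 in the Dot1l comparisons and 0.24 between controls. Depth limits Tet1, Dnmt3b and Hdac9 in culture, where they rest on 33 to 243 reads per library.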
